A study of Mus musculus with 15 samples.

Results

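Bazedoxifene (BZA) added to conjugated estrogens (CE) was examined in mouse liver by comparing the 3 mice given both agents (CE+BZA) with the 3 mice given CE alone, over all 2545 genes of the deposited RNA-seq table. These 6 mice are part of a series of 15 female mice, 3 in each of 5 groups, whose strain is C57BL/6 in the labels and C57BL/6J in the study's methods. All 15 were switched to a high-fat diet at 8 weeks of age, ovariectomized at 10 weeks and treated for 6 weeks. The other groups received vehicle (Veh), BZA alone or estradiol (E2). Doses in the study's list of groups were 2.5 mg per kg per day for CE, 3 mg per kg per day for BZA and 5 μg per kg per day for E2, and no separate doses are listed for the combination. CE was loaded into osmotic minipumps and E2 was released from pellets, so the groups also differed in how the agent was delivered. All groups, Veh included, lacked ovaries, and a mouse with ovaries was not analysed here.

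Conjugated estrogens are a mixture of estrogens that activate the estrogen receptors. BZA is a selective estrogen receptor modulator: it binds the same receptors, and it is known to oppose estrogens in the uterus while acting like one in bone. In the liver, estrogen receptor alpha is the main form, and estrogens also act there indirectly through growth hormone, whose secretion pattern sets the difference between female and male liver gene expression. With Veh as the reference, a gene that CE had moved and CE+BZA brought back can be told from a gene that only moved when BZA was added.

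Each value is the log2 of the authors' normalized expression, set so that the gene's median over the series is 0. Thus 0 marks the middle mouse, and values cannot be compared between genes. The table lists only genes with a mean difference from Veh above 2-fold in at least 1 treatment, and it does not give the number of reads per mouse. In 1045 genes (41.1%) at least 2 mice shared the lowest value, called the floor here. A difference that ends at the floor has no exact size. Genes at the floor numbered 318, 356 and 334 in the CE mice and 491, 402 and 393 in the CE+BZA mice. Every CE+BZA mouse thus had more genes at the floor than every CE mouse, and the cause was not tested. Of 18 hepatocyte markers, 3 were in this selection (Ass1, Pck1 and Tat), and none of them was at the floor in any mouse. The table thus allows only a partial check of the labelled tissue. CE replicate 3 and BZA replicates 3 and 1 stood apart in genes of other cells, which is described with those genes.

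The only call at the FDR threshold between CE+BZA and CE was Gm9847, a near copy of Socs2 (chr10:95383903-95417321 of GRCm38.p6), which encodes a feedback inhibitor of growth hormone receptor signalling. Socs2 stood at 2.38, 1.27 and 1.11 in the CE mice and at −1.67, −1.09 and −0.99 in the CE+BZA mice. The Veh mice had 0.00, −1.0 and −0.86, and the BZA mice −1.59, 0.34 and −1.52. Every CE mouse was above every Veh, BZA and CE+BZA mouse, and the CE+BZA and Veh mice overlapped. The difference between CE+BZA and CE was −2.84 ± 0.58 on the log2 scale (SE, adjusted p = 0.077, limma). In the E2 mice Socs2 was at 0.51, 1.46 and 0.86, below the lowest CE mouse in 2 of the 3. Gm9847 differed by −3.28 ± 0.56 and was the only gene past a fold change of 2 and an FDR of 0.05 (adjusted p = 0.0499, limma), which is 0.0393% of the 2545 genes.

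Gm9847 (chr12:14494470-14495288 of GRCm38.p6) is annotated as a pseudogene. Its 599-base GENCODE transcript matched bases 463 to 1061 of transcript Socs2-201, of which bases 463 to 1056 are coding, at 596 of 599 positions (99.5%), with an unbroken identical run of 266 bases. Over the 15 mice, the values of the 2 genes differed by a median of 0.141 and by at most 0.463. Reads of these 2 genes can therefore hardly be told apart, and the Gm9847 call is uncertain as a call of its own. Around the first of the 3 differences, G102A, counted from base 1 of Gm9847 with the Socs2 base first, the 2 sequences read as follows, with the differing base in capitals.
Socs2: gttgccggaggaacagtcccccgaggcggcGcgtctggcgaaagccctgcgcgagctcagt
Gm9847: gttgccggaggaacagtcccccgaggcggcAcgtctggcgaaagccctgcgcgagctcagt
Without any 1 of the mice other than BZA replicate 1, no gene passed. Without that BZA mouse, Socs2 and Gm9847 both did (2 genes).

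Below the FDR threshold, differences were counted at a fold change above 2 with an unadjusted p under 0.05, called the nominal threshold here. CE+BZA was higher than CE in 181 genes (7.11%) and lower in 186 (7.31%). By a second count that uses no model, all 3 CE+BZA mice lay above all 3 CE mice, with means over 2-fold apart, in 190 genes (7.47%), and below them in 177 (6.95%). The 2 directions were thus close to equal. The median difference over all genes was 0.00, and the median absolute difference was 0.626. For CE+BZA against CE, adjusted p-values of the genes named below, other than Gm9847, were 0.077 or higher in limma. In this comparison each such gene is thus a description of 3 against 3 mice and did not pass the FDR.

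Veh divided the 367 genes without overlap into classes. In 121 genes (4.75% of all genes), CE had moved away from all Veh mice and CE+BZA had moved back, which is called reversed here. In 116 genes (4.56%), CE overlapped Veh and only CE+BZA stood apart from both, called new. A further 6 genes (0.236%) had moved on in the direction that CE had already taken. The other 124 could not be placed, because CE overlapped Veh and CE+BZA did too. Reversed genes were more often lower in CE+BZA than CE (70 lower, 51 higher), and new genes more often higher (70 higher, 46 lower). Of the 51 reversed genes that were higher, 48 ended overlapping the Veh mice, and of the 70 that were lower, 67 did. With the nominal threshold in place of overlap, 128 genes were reversed, 116 new and 4 moved further, and single genes could change class. The CE mice enter both the CE effect and the CE+BZA difference, so these class counts were not tested.

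**Figure D1:**
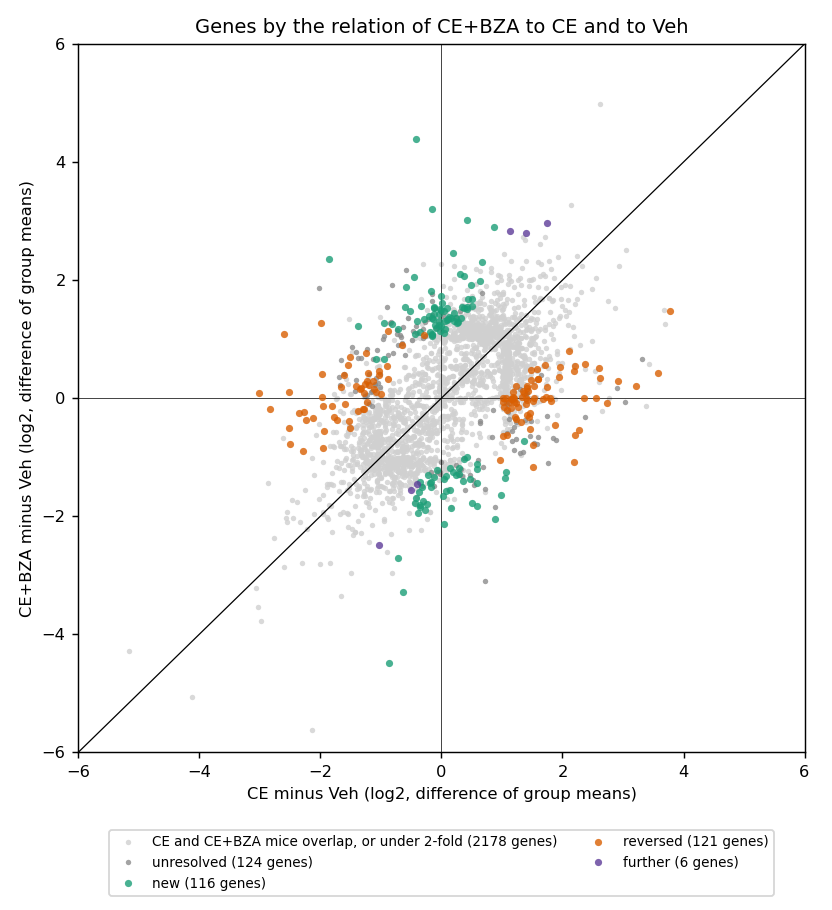
Each point is 1 of the 2545 genes, with the log2 difference of CE from Veh on the x axis and of CE+BZA from Veh on the y axis. Colours mark reversed (121, orange) and new (116, green) genes, which were set by the overlap of single mice and not by distance from 0, and points on the diagonal line had equal means in CE+BZA and CE. Both axes use the same Veh mice.

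Among reversed genes that CE raised, Egr1, an immediate early transcription factor, had 2.51, 1.36 and 2.08 in CE and −1.17, −1.30 and −0.03 in CE+BZA. Its Veh values of −1.77, −0.48 and 0.00 overlapped those of CE+BZA, and the difference from CE was −2.81 ± 0.68. Adamts6, a secreted metalloproteinase, was at 1.54, 2.42 and 2.15 in CE and at −0.85, 0.04 and −1.54 in CE+BZA. All 3 CE mice were above all 3 CE+BZA mice, whereas Veh (0.00, −0.99 and 0.28) overlapped CE+BZA.

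Enho (chr4:41638144-41640302) encodes adropin, a secreted peptide linked to energy balance. It had 1.36, 1.03 and 2.10 in CE, −0.84, −0.81 and −0.72 in CE+BZA and −1.56, −2.17 and −3.09 in Veh. Here the return was partial, since the 3 CE+BZA mice lay above all 3 Veh mice. The difference was −2.29 ± 0.58 between CE+BZA and CE and 3.77 between CE and Veh. Nipal1, a magnesium transporter, differed by −2.30 ± 0.60, and Ccr6, a chemokine receptor, differed by −2.33 ± 0.57 with 2 of the 3 CE+BZA mice at the floor.

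Reversed genes that CE lowered included Col27a1 (chr4:63214009-63334991), a fibrillar collagen. It was at −1.72, −2.58 and −1.65 in CE and at 1.37, 0.33 and 2.15 in CE+BZA, a difference of 3.26 ± 0.75. CE+BZA overlapped Veh (−0.45, 0.09 and 0.36) by only 1 mouse. Heatr8 had −1.99, −2.10 and −2.10 in CE, with 2 mice at the floor, and 0.21, 0.07 and 1.41 in CE+BZA, close to the Veh values of 0.48, −0.18 and 1.08. Mab21l2 (2.65 ± 0.77), A4gnt (2.01 ± 0.63), Ttc25 (2.10 ± 0.60) and Ccdc151 (2.03 ± 0.47) were likewise higher in CE+BZA than in CE. Ttc25 and Ccdc151 encode parts of the docking machinery for dynein arms in cilia, and A4gnt a glycosyltransferase.

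**Figure D2:**
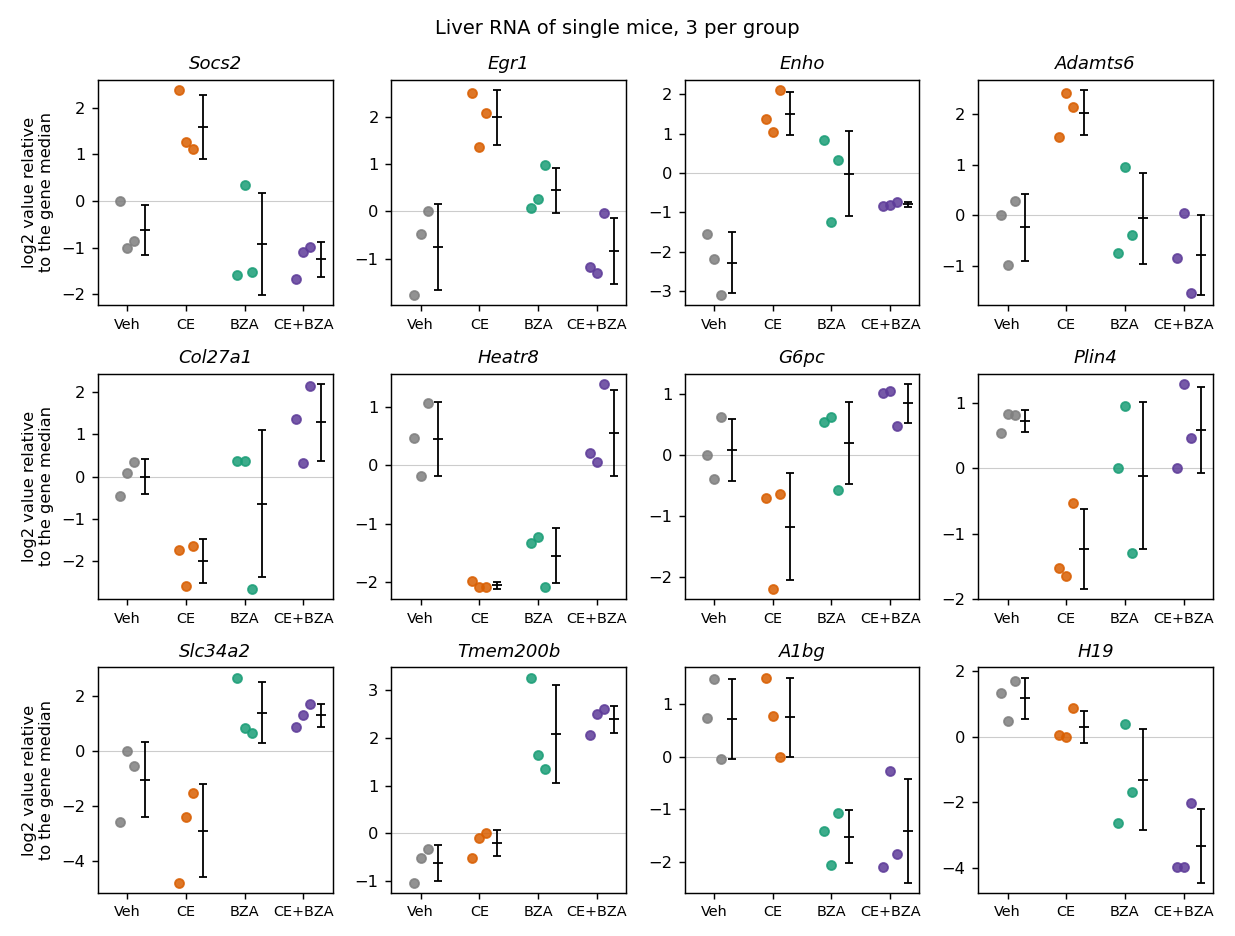
Points are log2 values of single mice relative to the median of each gene, with 3 mice per group. The black mark and bar beside them are the mean and SD, and each panel has its own scale. In Socs2, Egr1, Enho and Adamts6 the CE mice stand above all CE+BZA mice, in Col27a1, Heatr8, G6pc and Plin4 below them, and in Slc34a2, Tmem200b, A1bg and H19 CE overlaps Veh while CE+BZA does not.

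New changes included genes in which BZA alone had a similar level. Slc34a2 (chr5:53049353-53071664), a sodium-phosphate cotransporter, was at 0.89, 1.30 and 1.72 in CE+BZA and at −4.79, −2.41 and −1.51 in CE, a difference of 4.21 ± 0.86 (adjusted p = 0.077, limma). The BZA mice had 2.68, 0.85 and 0.65, and Veh −2.58, 0.00 and −0.55. Every BZA and CE+BZA mouse was thus above every CE and Veh mouse, while the E2 mice (1.42, −0.045 and −0.83) overlapped the BZA and CE+BZA mice. Slc34a2 was itself lower in CE than in Veh (−1.86 ± 0.86, past the nominal threshold), and 1 Veh mouse (−2.58) reached the CE range. By the nominal threshold in place of overlap, it would be classed as reversed. Tmem200b, a membrane protein gene, had 2.07, 2.51 and 2.60 in CE+BZA, 3.27, 1.64 and 1.34 in BZA, at most 0.00 in CE, at most −0.32 in Veh and at most 0.58 in E2. Its difference between CE+BZA and CE was 2.60 ± 0.59.

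Other new genes that were higher in CE+BZA than in CE were Tsku (2.59 ± 0.63), which encodes the secreted protein tsukushi, Ctxn1 (2.51 ± 0.70), Clic3 (2.04 ± 0.58) and the clone-named gene AC152063.2 (4.82 ± 1.12). Tsku was likewise nominally lower in CE than in Veh (−1.38 ± 0.63) and would be reversed by the nominal threshold. Clic3, an intracellular chloride channel family member, had 0.52, 0.46 and 1.96 in CE+BZA and −0.79, −2.06 and −0.33 in CE. Its BZA values (−0.57, 0.56 and 0.93) lay above all Veh mice but overlapped CE.

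New genes that were lower in CE+BZA included A1bg, a secreted plasma glycoprotein of female liver. It was at 1.51, 0.77 and 0.00 in CE, −2.10, −0.28 and −1.85 in CE+BZA, −1.42, −2.06 and −1.08 in BZA and 0.73, 1.48 and −0.05 in Veh. No mouse given BZA, alone or with CE, reached any mouse of the Veh or CE groups, and the difference between CE+BZA and CE was −2.17 ± 0.60. CE by itself differed from Veh by 0.04 in this gene, while the 3 E2 mice stood at 4.59, 4.03 and 4.91.

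H19, an imprinted long noncoding RNA, had 0.04, 0.00 and 0.86 in CE and −3.97, −3.97 and −2.02 in CE+BZA, with 2 of the CE+BZA mice at the floor. The nominal difference was −3.62 ± 1.04. Eda2r (−2.67 ± 0.75), a receptor of the tumor necrosis factor family, Prom1 (−2.00 ± 0.65), a progenitor cell surface protein, and Psmc3ip (−2.94 ± 0.93), a recombination factor, were lower too. Nfe2, a transcription factor of erythroid cells and megakaryocytes, was at −3.00, −0.84 and −1.46 in CE+BZA and at 0.11, 1.25 and 1.25 in CE, a difference of −2.63 ± 0.60.

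Genes that differ between female and male liver were counted at the nominal threshold, and none of those counted here passed the FDR. Of 32 female-biased genes in the table, 11 were nominally lower in CE+BZA than in CE (34.4%, against 7.31% of all genes) and 1 was higher. The median difference of the list was −0.78, against 0.00 over all genes. Between CE and Veh the list median was −0.36, against 0.055 over all genes. By class, 2 of the 32 were reversed, 2 new and 2 moved further, and 4 could not be placed. Of 25 male-biased genes, 6 were nominally higher (against 7.11% of all genes) and none (0) was lower, with a median of 0.80. Earlier results of these data had already named 4 of the female-biased members. Without them, 7 of 28 were lower, 1 was higher and the median was −0.67. Of these 28, 0 were reversed, 1 was new, 2 moved further and 3 could not be placed. Without CE replicate 3, 13 of the 32 female-biased genes were lower, and 7 of the 25 male-biased genes were higher and 1 lower.

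The female-biased genes that were lower were Enho, Sult1e1, Cyp3a41a, A1bg, Cyp3a44, Cux2, Cyp2c69, Cyp2a4, Abcd2, Sult2a1 and Atp6v0d2. Sult1e1, the sulfotransferase that inactivates estrogens, was at 0.65, 0.09 and 0.43 in CE and at −2.09, −0.96 and −2.56 in CE+BZA, a difference of −2.26 ± 0.67. Cux2, a transcription factor that represses male-biased genes in female liver, had 1.64, 0.83 and 0.00 in CE and −3.25, −2.08 and 1.57 in CE+BZA. CE+BZA replicate 3 was thus within the CE range for Cux2, although the nominal threshold was passed (−2.08 ± 0.91). The member that was higher was Gadd45g, a stress-response gene, at 0.23, 1.95 and 1.18 in CE+BZA and −0.54, −1.94 and 0.42 in CE.

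Cyp3a41a and Cyp3a44 are neighbouring cytochrome P450 genes of the drug-metabolizing 3A family. Cyp3a44 was at 1.20, 1.57 and 1.42 in CE and −0.35, −1.65 and −0.10 in CE+BZA (−2.10 ± 0.65), and Cyp3a41a at 0.87, 0.65 and 0.52 in CE and −1.72, −1.92 and −0.96 in CE+BZA (−2.22 ± 0.59). CE was above CE+BZA in every mouse for both genes. Only Cyp3a44 was classed as reversed, because 1 Veh mouse (0.65) reached the CE range of Cyp3a41a. Their reads can be split between near-identical copies, as can those of Cyp2a4, Cyp2c69 and the Sult2a genes. The RefSeq promoters of the pair, 250 bases before to 50 after the start on the minus strand of GRCm38.p6, were identical at 277 of 300 positions (92.3%). They are shown, with the A1bg promoter, because these 3 female-biased genes were lower together.
Cyp3a41a, chr5:145720087-145720386: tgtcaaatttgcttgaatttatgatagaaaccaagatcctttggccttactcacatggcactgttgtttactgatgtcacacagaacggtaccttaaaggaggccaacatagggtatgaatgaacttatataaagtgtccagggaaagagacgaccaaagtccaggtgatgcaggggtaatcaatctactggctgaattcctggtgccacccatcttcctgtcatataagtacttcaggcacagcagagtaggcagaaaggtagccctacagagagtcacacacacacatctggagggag
Cyp3a44, chr5:145805825-145806124: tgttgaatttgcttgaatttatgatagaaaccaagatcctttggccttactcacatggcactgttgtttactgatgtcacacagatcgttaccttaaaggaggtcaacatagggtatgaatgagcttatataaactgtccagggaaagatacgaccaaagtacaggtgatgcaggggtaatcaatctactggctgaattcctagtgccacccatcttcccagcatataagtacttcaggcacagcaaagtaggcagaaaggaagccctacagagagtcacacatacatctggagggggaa
A1bg, chr15:60921221-60921520: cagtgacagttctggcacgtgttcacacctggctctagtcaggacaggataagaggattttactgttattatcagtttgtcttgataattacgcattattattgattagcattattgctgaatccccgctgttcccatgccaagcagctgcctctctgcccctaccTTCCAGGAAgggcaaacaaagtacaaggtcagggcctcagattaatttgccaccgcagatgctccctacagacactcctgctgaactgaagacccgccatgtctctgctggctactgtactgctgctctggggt
Capitals mark the match to TTCNNNGAA, the letters bound by STAT factors such as the growth hormone-activated STAT5. It read TTCCAGGAA and began 84 bases before the A1bg start. This match, searched on both strands, was in 1 of the 7 lower female-biased genes with a promoter sequence. It was in 9 of 94 genes nominally lower (9.6%), in 7 of 106 nominally higher (6.6%) and in 121 of all 1413 genes of the table with a promoter (8.6%). Counted by promoter and not by gene, it was in 8.3% of all 32619 promoters. The estrogen response element GGTCANNNTGACC occurred in none (0) of the promoters of the 1413 genes of the table that had one, and in 0.1% of all promoters. The EGR site GCGTGGGCG was in 0 of the 94 and 0 of the 106, and in 0.6% of all.

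Male-biased genes that were higher were Cyp4a12a, Tsku, Cyp4a12b, Omd, Mup20 and Ihh. Cyp4a12a, an androgen-dependent fatty acid hydroxylase of male liver, was at −0.40, −2.50 and −2.50 in CE, with 2 mice at the floor, and at 1.13, 1.43 and 1.36 in CE+BZA. Veh, at −0.19, 3.17 and 0.69, overlapped CE+BZA, and the difference was 3.11 ± 0.77. The E2 mice, at −1.68, −2.50 and −2.50, were as low as the CE mice. Cyp4a12b (1.89 ± 0.72) is a close copy of Cyp4a12a, and Mup20 (1.51 ± 0.66) belongs to the multigene family of major urinary proteins, so both are uncertain as separate genes. Omd, a small matrix proteoglycan, was 1.67 ± 0.69 higher, and Ihh, a hedgehog ligand, 1.16 ± 0.50 higher.

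**Figure D3:**
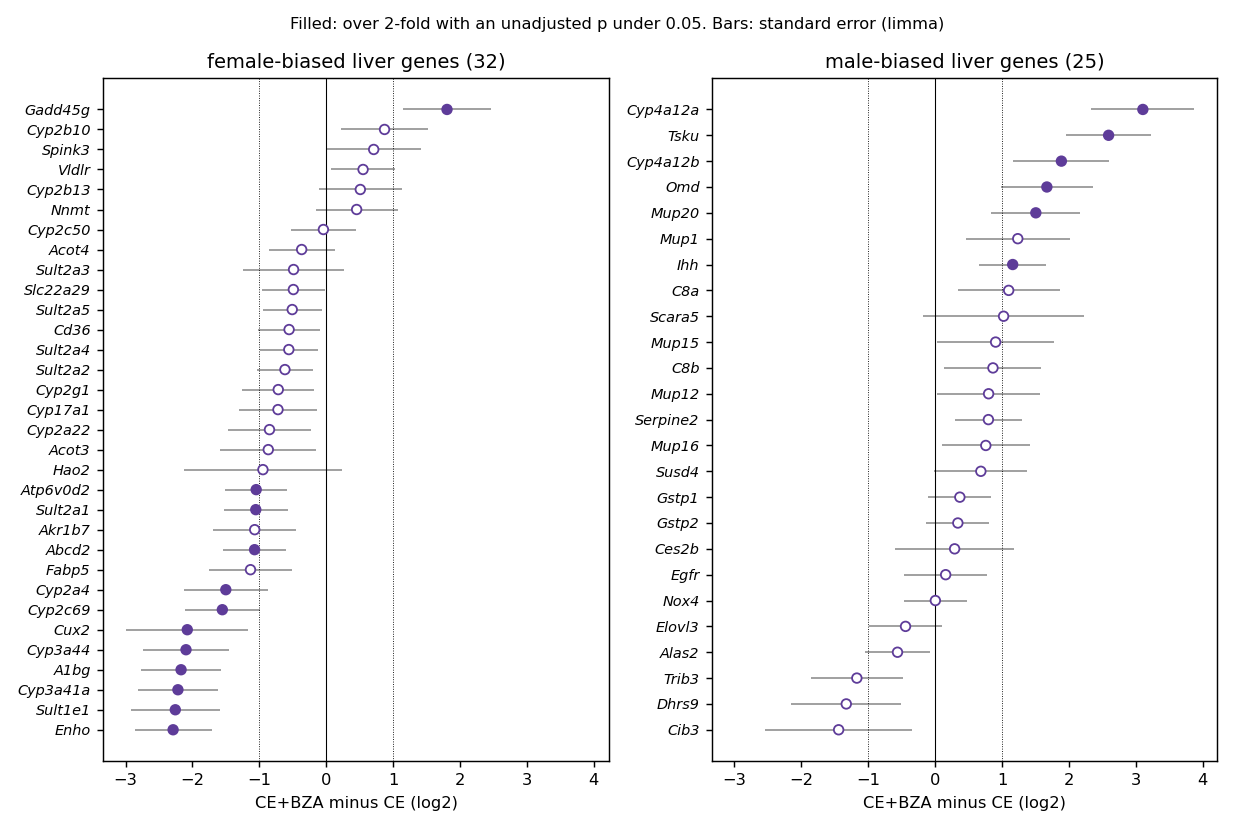
Log2 differences of CE+BZA from CE are plotted for the female-biased (32) and male-biased (25) genes in the table, with SE bars. Filled points passed the nominal threshold: 11 lower and 1 higher on the left, 6 higher and 0 lower on the right.

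A few genes of glucose metabolism were nominally higher in CE+BZA than in CE. Of 13 genes of glucose and glycogen metabolism in the table, 4 passed the nominal threshold upward (30.8%) and 0 downward, against 7.11% of all genes, and the median difference was 0.67. G6pc, the catalytic subunit of glucose-6-phosphatase that releases glucose from the liver, was at −0.70, −2.19 and −0.63 in CE and at 1.02, 1.04 and 0.47 in CE+BZA. Veh was at 0.00, −0.39 and 0.62, between and overlapping CE+BZA, and the difference was 2.02 ± 0.54. Tat, a tyrosine-degrading enzyme induced by glucocorticoids, was 1.26 ± 0.46 higher, Ddit4, an inhibitor of mTOR signalling, 1.67 ± 0.55 higher and Ppp1r3b, a glycogen-targeting phosphatase subunit, 1.42 ± 0.53 higher. Ppp1r3g, of the same phosphatase family, was at −1.14, −1.69 and −0.84 in CE+BZA and at 2.92, 0.00 and 0.39 in CE, and missed the threshold (−2.33 ± 1.15).

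Among 22 genes of lipid uptake, synthesis and storage, 2 were nominally higher in CE+BZA than in CE (9.1%, near the 7.11% of all genes) and 0 lower. Plin4, a lipid droplet coat protein, was at −1.52, −1.65 and −0.52 in CE, 0.00, 1.30 and 0.46 in CE+BZA and 0.54, 0.83 and 0.81 in Veh. It was reversed, with a difference of 1.82 ± 0.59, and its 3 E2 mice (−0.99, −1.92 and −2.18) were low like the CE mice. Fasn, the fatty acid synthase, had 0.73, 0.19 and 0.01 in CE+BZA and −1.66, −1.46 and −0.70 in CE.

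Other lipid genes did not pass the nominal threshold between CE+BZA and CE. Mogat1, a monoacylglycerol acyltransferase, was at 2.25, 2.31 and 2.04 in Veh, 0.18, −1.11 and −0.75 in CE and 0.03, −0.23 and −0.32 in CE+BZA. Its difference between CE+BZA and CE was 0.39 ± 0.50. Pla2g4f, a phospholipase, was at the floor of −1.17 in all 3 CE+BZA mice and at −1.06, 0.00 and −0.87 in CE, against 1.41 to 2.92 in Veh. Pparg, a nuclear receptor that drives fat storage, differed by −0.24 ± 0.44, and by −0.80 ± 0.44 between CE and Veh, which did not pass either. Cd36, a fatty acid transporter, differed by −0.56 ± 0.46. Cfd, the adipokine complement factor D, was at −0.37, 0.00 and 0.11 in CE+BZA and 0.53, −3.00 and −0.43 in CE, and above both in all 3 Veh mice (3.15, 4.89 and 4.55).

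Of 20 genes of fatty acid oxidation, peroxisomes and PPAR-alpha, 2 were higher (Cyp4a12a and Cyp4a12b, already described) and 1 was lower. The lower gene was Abcd2, a peroxisomal fatty acid transporter, at −1.07 ± 0.47. Over all genes, 7.11% were higher and 7.31% lower. After removing genes in which 2 or more mice were at the floor, 0 of 17 genes of this list were higher and 1 was lower. None of 7 genes of cholesterol and bile acid metabolism passed (0 higher, 0 lower). Cyp7a1, the rate-limiting enzyme of bile acid synthesis, differed by 0.75 ± 0.53. Among 29 xenobiotic and glutathione enzymes, 3 were lower (10.3%, against 7.31% of all genes) and 0 higher. They were the 3 members of the Cyp3a family Cyp3a41a, Cyp3a44 and Cyp3a59, the last of which had moved further from Veh (−1.46 ± 0.50 from CE).

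Signal-response genes were mixed in direction. Of 18 immediate early genes, 3 were nominally higher (16.7%) and 1 lower (5.6%), against 7.11% and 7.31% of all genes. Dusp1, a phosphatase that ends MAP kinase signalling, was at 1.45, 1.89 and 2.02 in CE+BZA and −1.36, −1.29 and −0.16 in CE, a difference of 2.72 ± 0.75, the opposite direction to Egr1. Zfp36, which destabilizes cytokine mRNAs, was 1.13 ± 0.47 higher. Both heat shock genes in the table, Hspa1a (1.97 ± 0.62) and Hspa1b (2.00 ± 0.67), were higher, and as near-identical copies they count as 1 measurement.

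Of 9 circadian clock genes, 2 were higher (Ccrn4l, 1.82 ± 0.66, and Cry1, 1.52 ± 0.57) and 0 lower. The higher share was 22.2%, against 7.11% of all genes. Dbp, a clock output gene, had −1.06, −0.56 and 0.42 in CE+BZA and 1.17, 0.83 and 0.00 in CE (−1.06 ± 0.52, not past the threshold). Of 13 estrogen receptor targets and genes of estrogen metabolism, 2 were higher (Gdf15 and Kcnk5) and 3 lower (Ltf, Sult1e1 and Susd3). These shares were 15.4% and 23.1%, against 7.11% and 7.31% of all genes. Gdf15, a stress-induced hormone, was at −0.48, 2.56 and 3.60 in CE+BZA and at −0.36, 0.55 and −0.62 in CE, so that 1 of the CE+BZA mice lay within the CE range. Without CE replicate 3, 0 of the 13 were higher and 1 was lower.

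Of 15 hepatokines, growth factors and genes of energy balance, 2 were higher (Bmp7 and Gdf15) and 3 lower (Socs2, Enho and Ereg). These shares were 13.3% and 20.0%, against 7.11% and 7.31% of all genes. Bmp7, a bone morphogenetic protein, was one of the few genes that moved further in the CE direction, with −2.42, −1.58 and −1.48 in Veh, 0.00, 0.01 and −0.26 in CE and 0.32, 1.18 and 1.91 in CE+BZA. Among 18 extracellular matrix genes, 3 were higher (Col27a1, Omd and Col8a1) and 1 lower (Col4a3, −2.09 ± 0.69), or 16.7% and 5.6%. Of 13 cell cycle genes, Rrm2 was higher (1.60 ± 0.66) and Ect2 lower (−1.21 ± 0.49), each 7.7% and near the share of all genes. A negative difference was found in 12 of the 13, and in 1238 of all 2545 genes. CE replicate 3 had a list mean of 1.49, against −0.42 and 0.066 in the other CE mice, and without that mouse 1 gene was higher and 0 lower.

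Of 36 acute phase, cytokine and chemokine genes, 0 were higher and 2 lower, Il1rn (−1.54 ± 0.55), the interleukin 1 receptor antagonist, and Ccr7 (−2.02 ± 0.74), a lymphocyte homing receptor. The lower share was 5.6%, against 7.31% of all genes. None passed among 5 interferon-stimulated genes (0 in either direction) and 10 complement and coagulation genes (0 in either direction). Without CE replicate 3, 2 of the 36 were higher and 2 lower, 1 of the 5 was lower and 1 of the 10 was higher.

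Several genes of B and plasma cells and of erythroid cells were nominally lower in CE+BZA than in CE. In whole liver, fewer cells of a type and less RNA per cell cannot be told apart. Of 9 B and plasma cell genes, 4 were nominally lower (Ighg2c, Ighg2b, Igkc and Igj), or 44.4% against 7.31% of all genes, and these 4 were classed as reversed. All 9 had a negative difference, as had 1238 of all 2545 genes. Ighg2c, an immunoglobulin heavy chain, was at 1.11, 1.13 and 3.04 in CE, −2.90, −1.13 and 0.28 in CE+BZA and −0.90, −2.35 and −1.11 in Veh, a difference of −3.02 ± 0.84. The mean of the 9 genes was 0.89 to 1.16 in the CE mice, −1.02 to −0.02 in CE+BZA and −1.25 to 0.27 in Veh. Without CE replicate 3, 5 of the 9 were lower.

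Of 13 erythroid genes, 6 were lower (46.2%, against 7.31% of all genes) and 0 higher. A negative difference was found in 12 of them, and in 1238 of all 2545 genes. Slc4a1, the anion exchanger of the red cell membrane, was at 0.15, 1.80 and 3.36 in CE and −2.54, −0.11 and 0.00 in CE+BZA. The list mean was −0.26 to 1.58 in CE and −1.02 to −0.27 in CE+BZA, so that the lowest CE mouse came close to the highest CE+BZA mouse. Without CE replicate 3, 3 of the 13 were lower.

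Of 16 neutrophil genes, 5 were lower (Camp, Ltf, Mpo, Retnlg and S100a8), or 31.2% against 7.31% of all genes, and 0 higher. After removing genes in which 2 or more mice were at the floor, 1 of 6 was lower. The 5 lower genes rested on CE replicate 3, whose list mean was 5.09, against 0.80 and −0.11 in the other CE mice and −0.65 to 1.18 in CE+BZA. Ltf, lactoferrin, was at 6.98 in that mouse and at 1.67 and −0.01 in the other 2. Without CE replicate 3, 0 of the 16 were lower and 1 was higher, while over all genes 239 were higher (9.39%) and 149 lower (5.85%). Of 6 macrophage and Kupffer cell genes, 1 was lower (16.7%, Ly6c2, −1.84 ± 0.75) and without that mouse 0 were. Of 11 T and NK cell genes, 1 was lower (9.1%, near the share of all genes), Cd96 (−2.35 ± 0.63), and without that mouse 1 was lower. After removing genes in which 2 or more mice were at the floor, 0 of 8 T and NK cell genes were lower.

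Other marker lists showed few differences between CE+BZA and CE. None of 23 pancreas genes and none of 12 stellate cell and fibroblast genes passed (0 of each), 1 of 16 adipocyte genes was higher (Fasn), 1 of 10 cholangiocyte genes was higher (Krt7) and 1 lower (Prom1), 1 of 2 endothelial genes was higher (Wnt9b), and 1 of 5 striated muscle genes was lower (Cacng1). The shares of all genes were 7.11% higher and 7.31% lower. Cacng1 was at the floor in 13 of the 15 mice, among them all 3 CE+BZA mice and 1 CE mouse. In BZA replicate 3 the pancreas genes averaged 5.27 and the adipocyte genes 2.81, against at most 0.63 and 0.49 in the other BZA mice. BZA replicate 1 averaged 2.97 for cholangiocyte genes, against 0.44 and −0.46 in the other BZA mice. For stellate cell and fibroblast genes it averaged 1.73, against 0.46 and −0.33. BZA replicate 4 had the most genes at the floor of all mice (585). The BZA mice are not part of the CE+BZA and CE comparison, but they enter every BZA group value given here. The part of blood and of these other tissues in the differences was not tested.

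**Figure D4:**
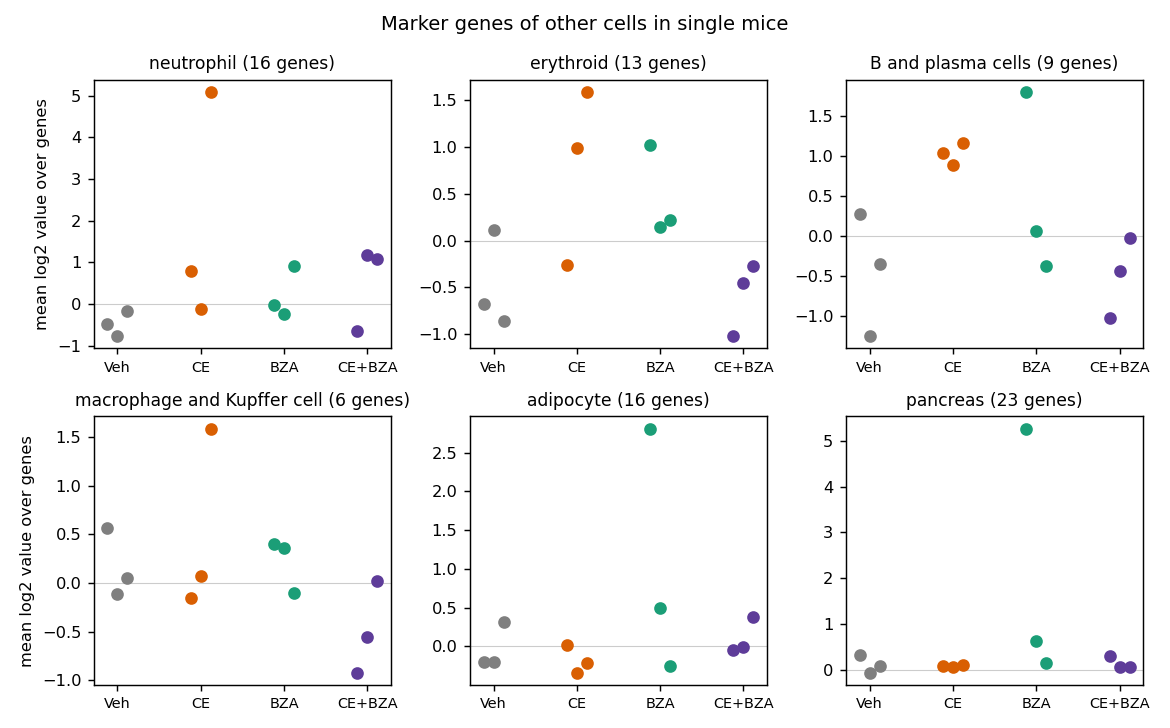
Points are single mice, and the y axis is the mean log2 value over the marker genes of a cell type, each with its own scale. CE replicate 3 stands at 5.09 for neutrophil genes, BZA replicate 3 at 5.27 for pancreas genes, and all CE mice lie above all CE+BZA mice for B and plasma cell genes.

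The effect of BZA on top of CE was set against its effect without CE, using 4 separate groups of mice. The difference of these 2 effects passed an FDR of 0.05 in 3 genes (0.118%), Enho, Heatr8 and Trim10. In each of them BZA had opposite signs in the 2 settings. All genes had been selected for a difference from Veh, by group means that also enter this contrast. How far that selection affects the p-values was not tested. Enho was 2.25 higher in BZA than in Veh and 2.29 lower in CE+BZA than in CE (−2.29), a difference of effects of −4.54 ± 0.82 (adjusted p = 0.0307, limma). Heatr8 was lower in BZA than in Veh (−2.01) and higher in CE+BZA than in CE (2.62), a difference of 4.63 ± 0.71 (adjusted p = 0.0155, limma). It was at −1.33, −1.23 and −2.10 in BZA and at −1.99, −2.10 and −2.10 in CE, so that either agent alone gave a low value, while the combination did not. Of these mice, 1 BZA and 2 CE mice were at the floor, so the Heatr8 difference of effects has no exact size.

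Trim10, an erythroid gene, was at the floor of −0.75 in all 3 Veh and all 3 CE+BZA mice and above it in CE (0.36, 2.74 and 2.35) and in BZA (3.1, 0.72 and 1.77). Its fitted difference of effects of −5.18 ± 0.92 (adjusted p = 0.0307, limma) has no exact size, since 2 of the groups ended at the floor. When each mouse was left out in turn, Heatr8 passed in 12 of the 15 fits, Trim10 in 3 and Enho in 2. Without Veh replicate 4, without CE replicate 6 or without CE replicate 3, 0 genes passed.

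Over all genes, the direction with BZA alone was set beside the direction on top of CE. Of the 190 genes in which CE+BZA lay above CE, BZA was above Veh in 111 (58.4%), and of the 177 in which CE+BZA lay below CE, BZA was above Veh in 88 (49.7%). Over all 2545 genes the share was 52.8%. As a description over genes, which share mice and are not independent, the 2 effects had a Pearson correlation of 0.131 in all 2545 genes and 0.196 in the 1500 genes with fewer than 2 mice at the floor. Among the new genes, Tmem200b differed by 2.71 with BZA alone and 2.60 on top of CE, A1bg by −2.24 and −2.17, and Slc34a2 by 2.44 and 4.21. BZA alone gave a smaller difference in Socs2 (−0.30 alone, −2.84 on top of CE), G6pc (0.12 and 2.02) and Cyp3a41a (0.08 and −2.22). These genes were chosen for their difference on top of CE, and none of the 6 passed the FDR for the difference of effects.

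**Figure D5:**
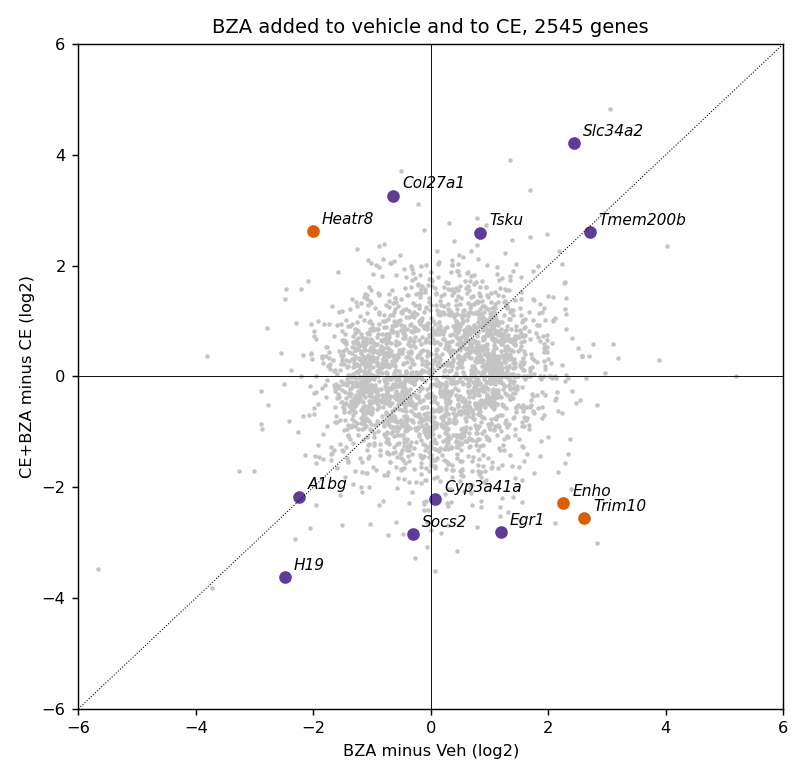
Each grey point is a gene, with the log2 difference of BZA from Veh on the x axis and of CE+BZA from CE on the y axis, and on the dotted line the 2 are equal. Enho, Heatr8 and Trim10 (orange) passed the FDR for a difference between the axes, while Tmem200b and A1bg lie close to the dotted line and Socs2 and Cyp3a41a close to 0 on the x axis.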

How the data were processed

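Liver poly(A) RNA of 15 mice was sequenced. The labels describe a stranded kit, reads from both fragment ends and 2 sequenced samples a group, while the study's methods give single-end reads and 3 samples a group. The table has 3 columns a group. The authors trimmed reads (FASTQ Trimmer), mapped them with TopHat, quantified genes with StrandNGS and applied DESeq normalization. The submitters' notes list the builds mm10 and hg19 without a role. The deposited values are log2 and were found to be relative to the median of each gene, with low values raised to a floor. Read depth is not in the table, so counting error is unknown and precision rests on 3 mice a group. These came from separate mice. All 15 columns matched a labelled mouse, and 0 of 105 pairs of mice had identical values.

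The log2 values of all mice entered one 5-group linear model (limma 3.58.1, R 4.3.3, lmFit with eBayes), with no pseudocount or filter. The Benjamini-Hochberg FDR covered 2545 genes. These had been selected for a difference from Veh, by group means that also enter the tests, and the effect of this on the p-values was not tested. Genes were called at an FDR under 0.05 with means over 2-fold apart, and for the difference of effects by the FDR alone. On simulated data, with 200 genes shifted in CE+BZA against CE, 0, 60, 161 and 189 were called at log2 shifts of 1, 2, 3 and 4, with 1, 2, 10 and 11 other calls, over 2545 genes. Plots were drawn with matplotlib 3.10.9 and tables summarised with pandas 2.3.3 (Python 3.11.15).

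Named genes were those past the FDR, the 10 with the smallest p in each direction (mice not overlapping, over 2-fold, at most 3 mice at the floor, no gene models), the 5 largest reversed and new genes per direction, the extremes of each of 29 gene lists, the genes past the FDR for the difference of effects, and A1bg, Cfd, Pparg, Enho, Pla2g4f, Mogat1 and Cyp7a1. Other list members were named after their values were seen. The members and lists were chosen with earlier results of these data known. One gene that this rule selects (1 gene, also left out of the gene lists) is not reported here, but it was kept in the fit and in counts over all genes. The table repeats 6 gene names. Positions and promoters are from RefSeq (GRCm38.p6) and transcripts from GENCODE, matched by symbol, with a position for 75 of 81 named genes. Alternatives were other normalizations, filters on floor values, other models, a replicate block and leaving out each mouse.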

Additional observations from a re-analysis of the deposited data

Results flagged for a closer look

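Enho, Heatr8 and Trim10 stood out because the effect of BZA on top of CE differed from its effect without CE by a test of that difference in limma. The group means in that test had also been used to select the genes of the series. The difference of effects was −4.54 on the log2 scale for Enho, 4.63 for Heatr8 and −5.18 for Trim10, and all mice of the CE group lay beyond all mice of the CE+BZA group in each gene. Heatr8 had 2 of 3 CE mice and 1 BZA mouse at the floor, and Trim10 all 3 CE+BZA and all 3 Veh mice. No group was large enough for a search for single mice that stand apart, which needs at least 4 mice.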

How the results depend on the processing

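The number of genes past the FDR between CE+BZA and CE (1) was 9 under quantile normalization, 5 after removing genes in which 2 or more mice were at the floor, 4 without genes with a CE or CE+BZA mouse at the floor, and 0 under median centring, an ordinary linear model, robust eBayes and with only the CE and CE+BZA mice, and 0 to 2 when 1 mouse was left out. Socs2, Slc34a2 and Gm9847 were among the 9, the 5 and the 4 genes. The nominal counts were 118 to 239 higher and 137 to 193 lower without 1 mouse. Lower genes numbered 111 and 107 under the 2 floor filters. Genes without overlap numbered 190 to 345 (higher) and 177 to 273 (lower) without 1 mouse, since 2 against 3 mice overlap less often, and 125 and 103 after the first floor filter, with 105 lower under the second floor filter. Reversed genes numbered 136 to 241 without 1 mouse and 78 after the first floor filter, new genes 110 to 232, and genes moved further 9 to 22, or 27 with no fold threshold. The difference of effects passed in 0 to 5 genes without 1 mouse, in Enho alone (1) under each floor filter, which removes Heatr8 and Trim10, in Heatr8 alone (1) under an ordinary linear model, in Heatr8, Trim10 and Ighg2c but not Enho under quantile normalization, and in 0 with only the 4 groups compared. Other causes of these changes were not tested.

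Replicate numbers recur between groups, and CE and CE+BZA share only number 3. The 13 same-numbered pairs of mice had correlations of their deviations from −0.049 to 0.098. The 77 differently numbered pairs had −0.176 to 0.233. Deviations of 3 mice from their own group mean are tied to each other. These correlations therefore cannot tell whether the numbers mark a shared factor. With the replicate block, 65 genes were higher and 156 lower, 0 passed the FDR and 0 passed for the difference of effects. Under the replicate block, nominally lower female-biased genes fell from 11 to 3, higher male-biased genes from 6 to 1 and higher glucose genes from 4 to 0. The sign of the CE+BZA difference changed under the replicate block for Saa2 (−1.73), Cfd (−0.27), Ciita (−0.35) and Trem2 (−0.20). Without 1 mouse it also changed. Pparg ranged from −0.41 to 0.024 (sign changed without CE+BZA replicate 1), Saa2 from −0.39 to 3.52 (CE+BZA replicate 2), Cfd from −0.13 to 1.63 (CE replicate 6), Tspan8 from −0.32 to 0.91 (CE replicate 7) and F13a1 from −3.11 to 0.092 (CE replicate 3). Trem2 ranged from −0.20 to 0.31, and its sign changed without CE replicate 7, CE replicate 6 or CE+BZA replicate 2. None of these passed the nominal threshold in the full fit.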
